A study of Drosophila melanogaster with 19 samples.

Results

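The genes described here encode proteins of the cytoplasmic ribosome of Drosophila melanogaster. A list of 38 FlyBase gene numbers was taken, which covers genes of the RpL, RpLP and RpS series and sta, and the rows of the expression table with these numbers were read out. Of the 38 genes, 36 had a row among the 12679 genes of the table, and FBgn0010198 and FBgn0010412 were not analysed here. The sources used here pair none of these numbers with a single gene symbol, so genes are given by number and the large and small subunits are not told apart.

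The cytoplasmic ribosome is built from a large and a small subunit, each of ribosomal RNA and a set of proteins, most of which are present in a single copy. Cells transcribe the genes of these proteins at a high level, and their messengers are among the most abundant in a growing embryo. In Drosophila, loss of a single copy of many of these genes gives the Minute phenotype of slow growth and short bristles.

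RNA was measured on 19 one-colour Affymetrix arrays, 9 in an experiment on mutants of tramtrack (ttk), a zinc finger repressor, and 10 in an experiment on its over-expression. All embryos carried btl-enh-RFPmoe, a red fluorescent reporter driven by a breathless enhancer, and embryos and sorted cells of the same genotypes were analysed side by side. The mutant experiment held 2 arrays of control embryos with the reporter alone, 2 of embryos labelled ttk2D50, 3 of sorted control cells and 2 of sorted cells labelled ttk2D50. Mutants were selected as embryos without the fluorescent balancer. In the over-expression experiment, 3 arrays of control embryos carried btl-GAL4, 3 arrays came from embryos labelled btl-GAL4 UAS-ttk, and 2 arrays each came from sorted cells of both genotypes. The btl-GAL4 driver acts in trachea and midline, and whole embryos also hold cells outside these. Eggs of the mutant experiment were collected for 7 hours and 40 minutes at 25°C and aged for a further 5 hours and 20 minutes. The paper gives the over-expression embryos the same age range. The labels give 29°C for the over-expression crosses, where the study's methods name 25°C alone. The cell samples came from 100000 sorted cells and the embryo samples from pooled embryos. According to the labels 25 ng of RNA was amplified, where the study's methods name a smaller amount. Sorted control cells of the second experiment carry the mutant's strain in their labels, and their titles were used to group them.

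The labels were checked first. The ttk signal lay at 3.85 and 3.50 above the array median in embryos labelled mutant and at 3.84 and 1.38 in their controls. Its difference of 1.06 rested on the second control array, and without it was −0.17. Cells labelled mutant averaged 4.25 (4.24 to 4.25) and their controls 3.41 (3.37 to 3.49). Embryos labelled over-expression averaged 2.69 (2.30 to 2.99) and their controls 3.16 (3.15 to 3.19). Cells labelled over-expression averaged 2.99 (2.88 to 3.09) and their controls 3.77 (3.70 to 3.83). These groups did not overlap, where 22.5%, 23.6% and 33.7% of all genes were apart in the same direction. The signal was thus higher under the mutant label and lower under the over-expression label, not the reverse. None of these 4 differences passed adjustment in limma, with adjusted p-values from 0.051 to 0.56. The part of ttk that the probes cover is not given in the sources used here, so this neither bears out nor overturns a label, and each ttk group below is named as labelled. Of the tracheal and midline genes, trh lay at 0.79 to 2.21 in embryos and 1.77 to 4.28 in cells, btl at −1.79 to 0.77 and 0.30 to 3.06, and sim at −1.98 to 0.48 and 0.52 to 2.34. The tracheal gene dys lay at −3.86 to −1.56 and −2.85 to −1.02. Markers of other cell types did not move one way. The fat body and blood cell gene srp lay at −0.57 to 1.56 in embryos and 2.19 to 4.03 in cells, and Adp of the fat body list at 0.096 to 1.11 and 0.49 to 1.43. The mesoderm gene twi lay at −1.19 to 1.51 in embryos and −1.82 to 1.37 in cells, and the muscle gene Mef2 at −1.55 to −0.085 and −1.87 to −0.39. Between control cells and control embryos of the over-expression experiment srp was higher by 1.88 (limma adjusted p = 4.96e-05), while twi differed by −1.85 (limma adjusted p = 0.00011) and Mef2 by −0.92 (limma adjusted p = 0.00068). The part of these cell types in the results below was not tested, and in pooled tissue fewer cells of a type and less RNA per cell cannot be told apart. Blood cell and nervous system markers (5 and 3 symbols) and other lists of translation genes could not be paired with rows.

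The ribosomal protein genes stood at the top of the signal on every array. Their median lay 4.59 to 6.57 above the median of all genes on the log2 scale, at percentile 99.5 to 99.7 of all genes. Between 15 and 25 of the 36 genes were among the 50 brightest genes of an array, with a median of 20 over the 19 arrays, and 28 to 34 were among the 100 brightest. One of them was the brightest gene of all on both control embryo arrays of the mutant experiment, on 1 of the 2 embryo and both cell arrays labelled ttk2D50, and on all 6 embryo arrays of the over-expression experiment. Probes differ in how strongly they bind, so these are positions of a signal and not numbers of transcripts.

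**Figure D1:**
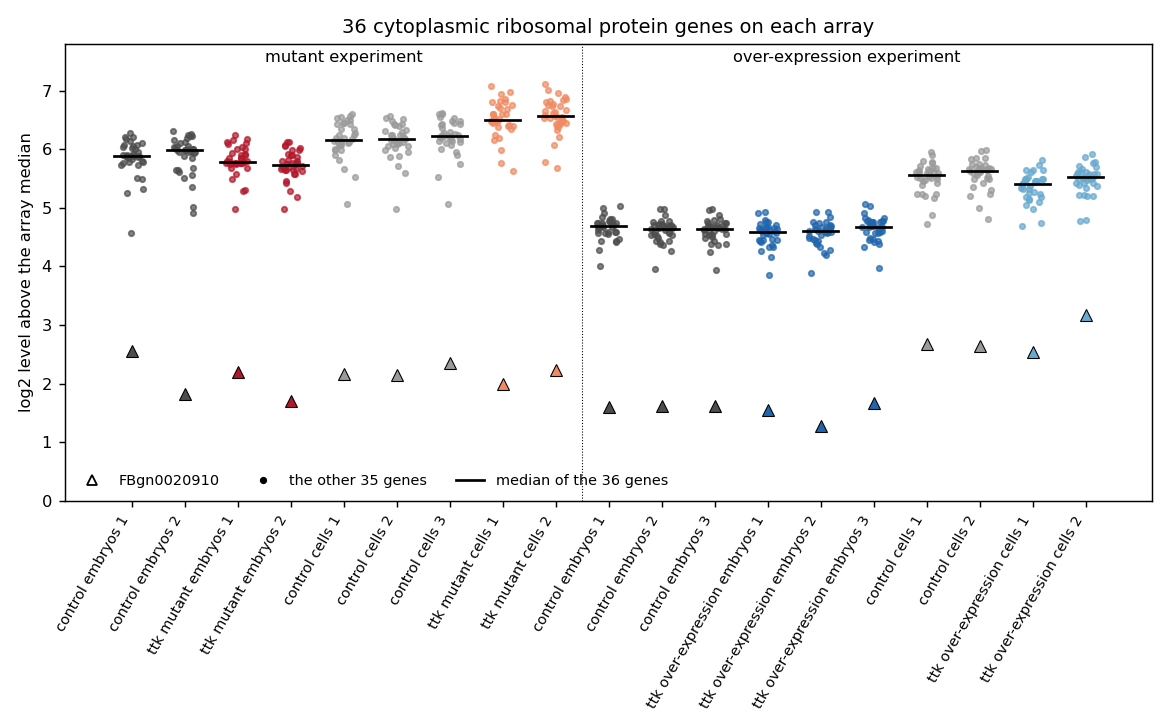
Log2 level above the median of all genes on the same array (vertical axis) for the 36 cytoplasmic ribosomal protein genes on each of the 19 arrays (horizontal axis), with groups named as labelled. Points are 35 genes, triangles FBgn0020910, and bars the median of the 36; the bars lie between 4.59 and 6.57, and the triangle is the lowest gene on every array.

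The gene with the highest mean signal was FBgn0002622. It lay at 6.20 and 6.23 above the array median in control embryos of the mutant experiment, at 6.24 and 6.13 in the embryos labelled mutant, at 6.54, 6.51 and 6.61 in control cells and at 7.08 and 7.12 in the cells labelled mutant. In the over-expression experiment it lay at 5.00, 4.98 and 4.97 in control embryos, 4.91, 4.94 and 5.04 in embryos labelled over-expression, 5.96 and 5.98 in control cells and 5.82 and 5.92 in cells labelled over-expression. Its rank among all genes ran from 1 to 11, with a median of 2. FBgn0028697 followed with a median rank of 5 and a range from 1 to 12.

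One gene stood apart from the rest. FBgn0020910 lay only 1.28 to 3.16 above the array median, at percentile 68.8 to 87.4 of all genes, and was the lowest of the 36 on all 19 arrays. It was measured at 2.55 and 1.82 in control embryos of the mutant experiment, 2.19 and 1.70 in embryos labelled mutant, 2.16, 2.14 and 2.35 in control cells and 1.99 and 2.23 in cells labelled mutant. In the over-expression experiment the values were 1.60, 1.62 and 1.62 in control embryos, 1.54, 1.28 and 1.67 in embryos labelled over-expression, 2.67 and 2.64 in control cells and 2.53 and 3.16 in cells labelled over-expression. The next higher gene of the list was 1.61 to 3.64 above it. The remaining 35 genes all stayed at percentile 97.3 or above, and the lowest of them by mean was FBgn0010408, with ranks from 161 to 343.

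The order of the genes was much alike in all groups. Spearman's rho between the mean levels of 2 groups, taken across the 36 genes, ran from 0.80 to 0.99 over the 28 pairs of groups with a median of 0.88, and from 0.78 to 0.99 without FBgn0020910. These are correlations across genes on arrays that share probes, and genes are not replicates. In the middle of the order many genes lay close together, for instance FBgn0002626, FBgn0017579 and FBgn0013325 with means of 5.50, 5.50 and 5.49 over the 19 arrays.

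Between replicate arrays these genes varied less than most others. The median SD of a ribosomal protein gene within a group was 0.026 to 0.076 over the 8 groups, beside 0.080 to 0.41 for all genes. Within a group, 32 to 36 of the 36 genes had an SD below the median SD of all genes. The largest SDs belonged to FBgn0020910 in 6 of the 8 groups, up to 0.52 in control embryos of the mutant experiment. For 7 of the genes in control cells of the mutant experiment and 1 in control embryos of the over-expression experiment, arrays of the group held equal deposited values. What part the processing of the arrays had in these SDs was not tested.

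The deposited values put these genes near the upper end of the range. The median of the 36 genes was between 12.74 and 13.89 as deposited, the brightest gene of an array was between 13.30 and 14.27, and the 3′ feature of the phage cre control was brighter than any gene at 14.41 to 14.79. The median of all genes moved more than any of these, from 6.17 on a cell array labelled mutant to 9.29 on an embryo array labelled over-expression. What part this upper end had in the small spread of these genes was not tested. Since array medians differed between groups, each comparison below is given on arrays centred on their own median, and then on the values as deposited.

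**Figure D2:**
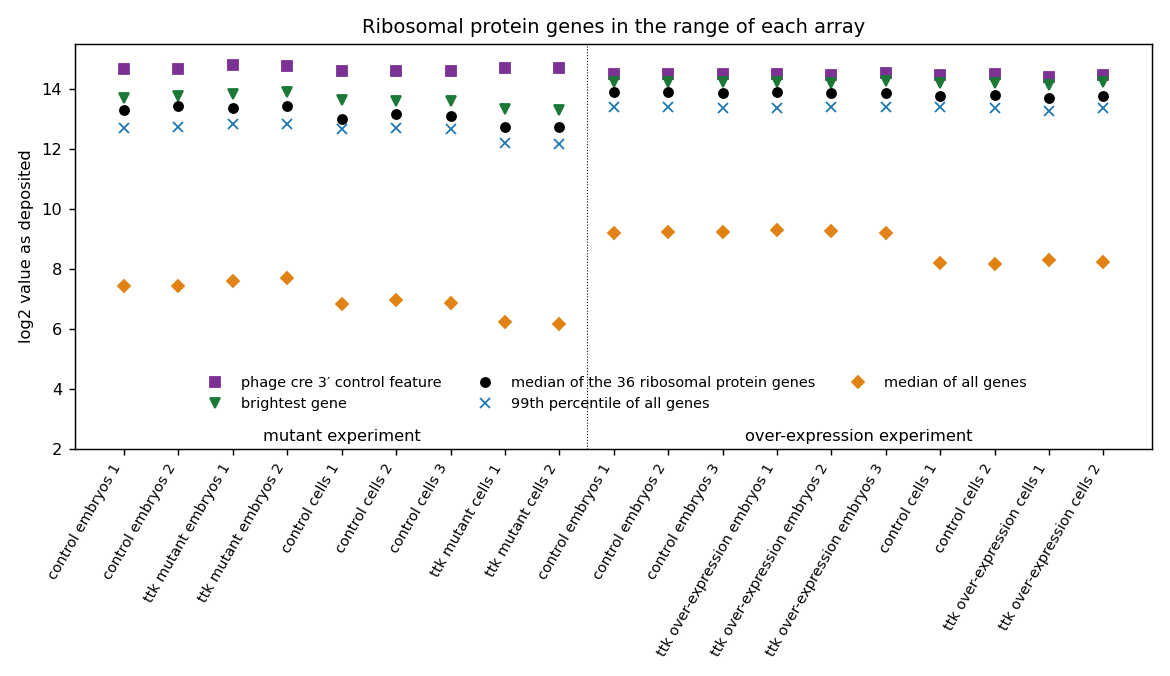
Deposited log2 values (vertical axis) on each of the 19 arrays (horizontal axis): the phage cre 3′ control feature, the brightest gene, the median of the 36 ribosomal protein genes, the 99th percentile of all genes and the median of all genes. The median of the 36 genes stayed between 12.74 and 13.89, while the median of all genes ran from 6.17 to 9.29.

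The first comparison asks how these genes differed in embryos labelled ttk2D50. On centred arrays the ribosomal protein genes were 0.11 lower by their median than in control embryos, beside −0.015 for all genes, and single genes ran from −0.38 to 0.25. Of the 36 genes, 32 had a negative difference and 4 a positive one (50.7% and 49.3% of all genes). In 20 genes all mutant arrays were below all control arrays (27.3% of all genes), and in 1 gene, FBgn0010408, they were above (26.8% of all genes). By limma 0 genes of the list passed an adjusted p of 0.05, as did 0% of all genes, and 0 of the list reached an unadjusted p of 0.05, where 10.6% of all genes did. The 95% intervals were wide, with median bounds of −0.88 and 0.65.

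The scale decided the direction in these embryos. As deposited, the median difference of the list was 0.089 and that of all genes 0.19. Of the 36 genes, 30 were positive (60.4% of all genes), and 19 had all mutant arrays above all controls (39.5% of all genes). On that scale limma also called 0 genes of the list and 0% of all genes.

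FBgn0015521 had the lowest difference in mutant embryos. It lay at 6.07 and 6.23 above the array median in control embryos and at 5.77 and 5.77 in the embryos labelled mutant, a difference of −0.38 ± 0.28 (SE, limma adjusted p = 0.53). The groups did not overlap, but the error was pooled over 2 arrays each. FBgn0013325 was second lowest, with means of 5.96 in control embryos and 5.71 in mutant embryos. Its difference ran from −0.33 to −0.16 when each array was left out. The largest positive difference, 0.25 ± 0.37 (SE, limma adjusted p = 0.72), was that of FBgn0015288, with 5.74 and 5.01 in controls and 5.68 and 5.58 in mutants. It rested on the low second control array, and without that array the difference was −0.11. FBgn0010408 lay at 4.57 and 4.91 in controls and 4.99 and 4.97 in mutants, a difference of 0.24 ± 0.30 (SE, limma adjusted p = 0.67). It too depended on the control arrays, and was 0.072 without the first and 0.41 without the second.

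In sorted cells labelled ttk2D50 the list lay higher than in control cells relative to the array median. The median difference was 0.38, beside 0.0098 for all genes, and single genes ran from −0.10 to 0.62. Of the 36 genes, 34 were positive (51% of all genes). In 33 genes both mutant arrays lay above all 3 control arrays, where 22.5% of all genes did so, and the exceptions were FBgn0020910, FBgn0000100 and FBgn0015521. Limma called 0 genes of the list at an adjusted p of 0.05 (5.45% of all genes were called in either direction), and 12 of the 36, or 33.3%, reached an unadjusted p of 0.05, beside 21.2% of all genes. The lowest adjusted p was 0.10, and the 95% intervals had median bounds of −0.032 and 0.78. With an intensity trend in the moderation of limma, which lets the prior spread depend on the signal, 25 of the 36 were called higher and 0 lower (5.31% and 2.29% of all genes).

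On the deposited values the same cells showed the opposite sign. The list was lower by a median of −0.30 while all genes were lower by a median of −0.67. All 36 genes had both mutant arrays below all control arrays (70.8% of all genes), and limma called 16 of them lower, beside 44.4% of all genes. Neither direction of the list held on both scales. The distance between the list and all genes is the same on both by construction, and after quantile normalization the medians were 0.045 for the list and 0.0032 for all genes.

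The highest gene in these cells was FBgn0010408, at 5.07, 4.97 and 5.06 above the array median in control cells and 5.63 and 5.68 in the cells labelled mutant. Its difference was 0.62 ± 0.16 (SE, limma adjusted p = 0.10), and −0.063 as deposited. FBgn0002622, the brightest gene of the list, came next with a difference of 0.55 ± 0.16 (SE, limma adjusted p = 0.13) and the array values given above. At the other end, FBgn0020910 differed by −0.10 ± 0.18 (SE) and FBgn0015521 by −0.024 ± 0.16 (SE), the latter with 6.44, 6.39 and 6.49 in control cells and 6.35 and 6.48 in mutant cells. As deposited both were called lower by limma, at −0.79 (adjusted p = 0.014) and −0.71 (adjusted p = 0.011).

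Whether the ttk2D50 difference was larger in cells than in embryos was tested on all 4 groups. The median of the 36 contrasts was 0.48 on centred arrays, −0.40 as deposited and 0.064 after quantile normalization. Limma called 0 genes of the list on each of these scales (0.244% of all genes on centred arrays), and 4, 7 and 0 genes of the 36 reached an unadjusted p of 0.05, which is 11.1%, 19.4% and 0% beside 11.1%, 40.4% and 13.2% of all genes. A difference between the materials was therefore not shown.

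Over-expression in embryos left the list within a narrow band. The median difference was −0.038 on centred arrays and −0.013 as deposited, beside −0.092 and −0.067 for all genes, and the 36 genes ran from −0.12 to 0.0037 on centred arrays. Limma called 0 genes on both scales (0.323% of all genes on centred arrays and 0.347% as deposited), and 0 reached an unadjusted p of 0.05, where 17.1% of all genes did so on centred arrays. Only FBgn0010265 and FBgn0010411 had all 3 over-expression arrays below all 3 controls, where 23.6% of all genes did. The 95% intervals had median bounds of −0.24 and 0.17, so changes beyond these sizes were outside the interval of a typical gene of the list. FBgn0020910 had the lowest difference at −0.12 ± 0.12 (SE, limma adjusted p = 0.56), which was −0.011 without the second and −0.20 without the third over-expression array. It was followed by FBgn0004867 at −0.11 ± 0.091 (SE). The latter lay at 4.43, 4.42 and 4.36 in controls and 4.26, 4.23 and 4.39 in the embryos labelled over-expression, and these groups overlapped. The highest were FBgn0003274 at 0.0037 ± 0.083 (SE) and FBgn0003941 at −0.0055 ± 0.085 (SE).

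In cells labelled over-expression the list was lower by a small amount. The median difference was −0.13 on centred arrays, beside −0.081 for all genes, and 35 of the 36 genes were negative (61.6% of all genes). In 26 genes both over-expression arrays lay below both control arrays, where 33.7% of all genes did so. Limma called 0 genes of the list and 0% of all genes, and 0 of the list reached an unadjusted p of 0.05, where 12.1% of all genes did. As deposited the median was −0.041 and 28 genes were negative (48.6% of all genes). Groups were apart below in 11 genes and above in 4 (23.4% and 22.6% of all genes). On that scale limma again called 0 (0% of all genes). The 95% intervals had median bounds of −0.50 and 0.25 on centred arrays.

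The lowest gene in these cells was FBgn0004403, at 5.24 and 5.42 in control cells and 4.98 and 5.23 in cells labelled over-expression. Its difference was −0.23 ± 0.16 (SE, limma adjusted p = 0.58). FBgn0023170 followed at −0.20 ± 0.17 (SE), with 5.53 and 5.64 in controls and 5.23 and 5.53 in over-expression, and these groups overlapped. Without the first over-expression array FBgn0004403 differed by −0.10 and FBgn0023170 by −0.054, and the median of the list was −0.065. The only positive difference was that of FBgn0020910 at 0.19 ± 0.26 (SE, limma adjusted p = 0.77). It came from the second over-expression array, at 3.16, and without it the difference was −0.12. FBgn0003279 was nearest to no difference among the negative genes, at −0.016 ± 0.13 (SE). The contrast of cells against embryos had a median of −0.089 over the list, and limma called 0 genes (0.0315% of all genes), with 0 at an unadjusted p of 0.05 beside 9.65% of all genes.

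**Figure D3:**
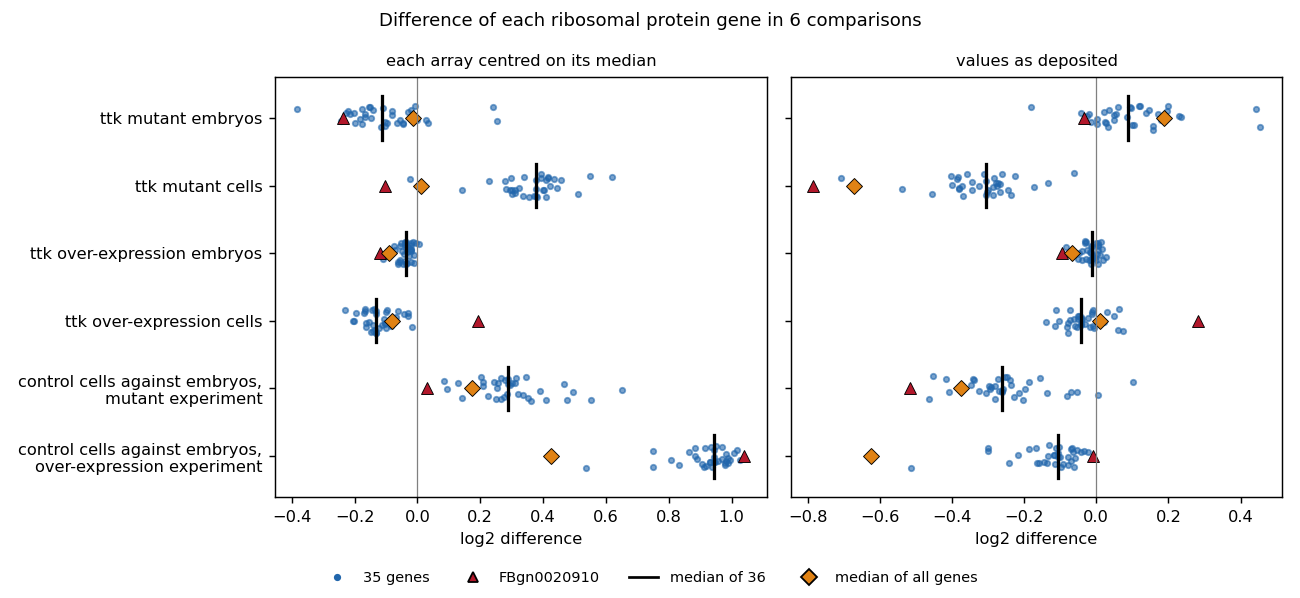
Log2 difference (horizontal axis) of the 36 ribosomal protein genes in the 6 comparisons, on centred arrays (left) and as deposited (right). Points are 35 genes, triangles FBgn0020910, bars the median of the 36 and diamonds the median of all genes; in mutant cells the median is 0.38 on the left and −0.30 on the right.

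Sorted control cells were then compared with whole control embryos, separately in each experiment. These comparisons share their control arrays with those of ttk, so the values stand side by side and are not independent of them. In the mutant experiment the list was higher in cells by a median of 0.29 on centred arrays, beside 0.17 for all genes. All 36 genes were positive (59.3% of all genes), from 0.032 to 0.65. In 34 genes all 3 cell arrays lay above both embryo arrays (30.1% of all genes), the others being FBgn0020910 and FBgn0003274. Limma called 0 genes of the list (0.584% of all genes), 0 reached an unadjusted p of 0.05 (21.3% of all genes did), and 3 were called higher with an intensity trend (5.06% of all genes). As deposited the median was −0.26 beside −0.38 for all genes, 31 genes had groups apart below (40.9% of all genes), and limma called 0 (2.02% of all genes).

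FBgn0015288 had the largest difference there, 0.65 ± 0.29 (SE, limma adjusted p = 0.27), with 6.01, 5.995 and 6.07 in cells against 5.74 and 5.01 in embryos. Without the second embryo array it was 0.29. FBgn0000100 differed by 0.55 ± 0.22 (SE, limma adjusted p = 0.24), with 5.99, 5.89 and 6.004 in cells and 5.25 and 5.56 in embryos. Both values were close to 0 as deposited, at 0.10 and 0.0055. FBgn0020910 and FBgn0003274 showed the smallest differences, 0.032 ± 0.30 and 0.085 ± 0.21 (SE).

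In the over-expression experiment all genes of the list passed the test on centred arrays, as they did in no other comparison. All 36 genes were called higher in control cells than in control embryos by limma, with adjusted p-values up to 0.00108, but 55.6% of all genes were called higher as well. The median difference was 0.94, beside 0.43 for all genes, and single genes ran from 0.54 to 1.04 with both cell arrays above all 3 embryo arrays in each (59.7% of all genes). The array medians were 8.19 and 8.16 in these cells and 9.20, 9.24 and 9.23 in the embryos. As deposited, the list was lower in cells by a median of −0.11, beside −0.62 for all genes. On that scale 0 genes were called higher and 9 lower (12.4% and 66.2% of all genes), and 33 of the 36 had groups apart below (71.5% of all genes). After quantile normalization 1 gene was called higher and 6 lower (34.3% and 35% of all genes). With the array's hybridisation controls as scale, a choice made after seeing the data, 0 genes were called higher and 4 lower (11% and 64.9% of all genes). By the study's rule of a log2 change of 1 with an unadjusted p of 0.05, 4 genes were called, all higher (22.3% of all genes).

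FBgn0020910 had the largest centred difference here, at 1.04 ± 0.058 (SE, limma adjusted p = 7.41e-05), with the array values given above, and −0.0083 as deposited. FBgn0005533 lay at 5.77 and 5.85 in cells and 4.81, 4.76 and 4.78 in embryos, which is 1.03 ± 0.064 (SE) centred and −0.024 as deposited. Their deposited levels in cells and embryos were thus nearly equal. The smallest centred difference was that of FBgn0004867, with 4.89 and 5.00 in cells and 4.43, 4.42 and 4.36 in embryos. It was 0.54 ± 0.069 (SE, limma adjusted p = 0.00108) centred and −0.51 (limma adjusted p = 0.00091) as deposited. FBgn0003279 came next at 0.75 ± 0.059 (SE, limma adjusted p = 0.000195), and −0.30 (limma adjusted p = 0.0047) as deposited.

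Across the 6 comparisons the genes stayed a narrow group. The interquartile range of their differences was 0.031 to 0.13, beside 0.38 to 1.17 for all genes. These widths are the same on centred and deposited values, since both scales differ only by a shift of each array. Genes of like brightness were not set beside the list, so whether they were as narrow was not tested. After quantile normalization, which gives all arrays of a comparison one distribution and so ties their upper ends together, the median difference of the list was between −0.095 and 0.045 in the 6 comparisons. To describe which genes left the group, the level of each gene was taken relative to the median of the 36 on the same array, which no shift of an array can change. This is a description with no test, and the genes named from it were chosen after their values were seen.

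Relative to the other ribosomal protein genes, FBgn0015521 was lower in both materials labelled ttk2D50. It lay 0.19 and 0.25 above the median of the 36 in control embryos and −0.019 and 0.036 in mutant embryos, a difference of −0.21. In cells it lay at 0.27, 0.21 and 0.26 in controls and −0.16 and −0.081 in mutants, a difference of −0.37. No array labelled mutant reached a control array of its material. In the over-expression experiment the same gene stayed between −0.020 and 0.077 on all 10 arrays.

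FBgn0010408 was the opposite case. It lay at −1.31 and −1.08 relative to the median of the 36 in control embryos, and at −0.80 and −0.76 in mutant embryos, a difference of 0.41. In control cells it lay at −1.09, −1.21 and −1.17 and in mutant cells at −0.87 and −0.89, a difference of 0.28. Again the groups did not overlap in either material, and the over-expression experiment held values from −0.84 to −0.69. In mutant embryos 15 genes lay higher and 6 lower than controls with groups apart on this measure. Of all genes, taken relative to the same median, 36.5% and 19.6% did. In mutant cells 13 and 7 of the list did, and 9.05% and 43.2% of all genes. The measure subtracts the list's own median, so the list is split about it by construction. The shares of all genes carry their offset from the list, so counts and shares are not read against each other.

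FBgn0004867 set the cells of the over-expression experiment apart from its embryos. It lay at −0.25, −0.23 and −0.28 in control embryos and at −0.68 and −0.64 in control cells, a difference of −0.41, the widest of the 36 in that comparison. The cells labelled over-expression were at −0.67 and −0.72, beside −0.33, −0.37 and −0.29 in the embryos of that label. In the mutant experiment it lay at −0.17 or above on the 9 arrays, and the cells overlapped the embryos. In the over-expression controls 31 of the 36 genes stayed within 0.1 of the median gene. With groups apart, 10 lay higher and 14 lower (18.4% and 66.2% of all genes). As above, these shares carry the offset of all genes from the list and are not read against its counts.

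FBgn0015288 left the group on a single array. It lay at −0.97 in the second control embryo array of the mutant experiment and between −0.35 and −0.10 on the other 18. The over-expression embryos were the tightest comparison, where all 36 genes stayed within 0.1 of the median gene, from −0.082 to 0.040. In over-expression cells 32 of the 36 did so, and FBgn0020910 at 0.33 was the only one beyond 0.2.

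**Figure D4:**
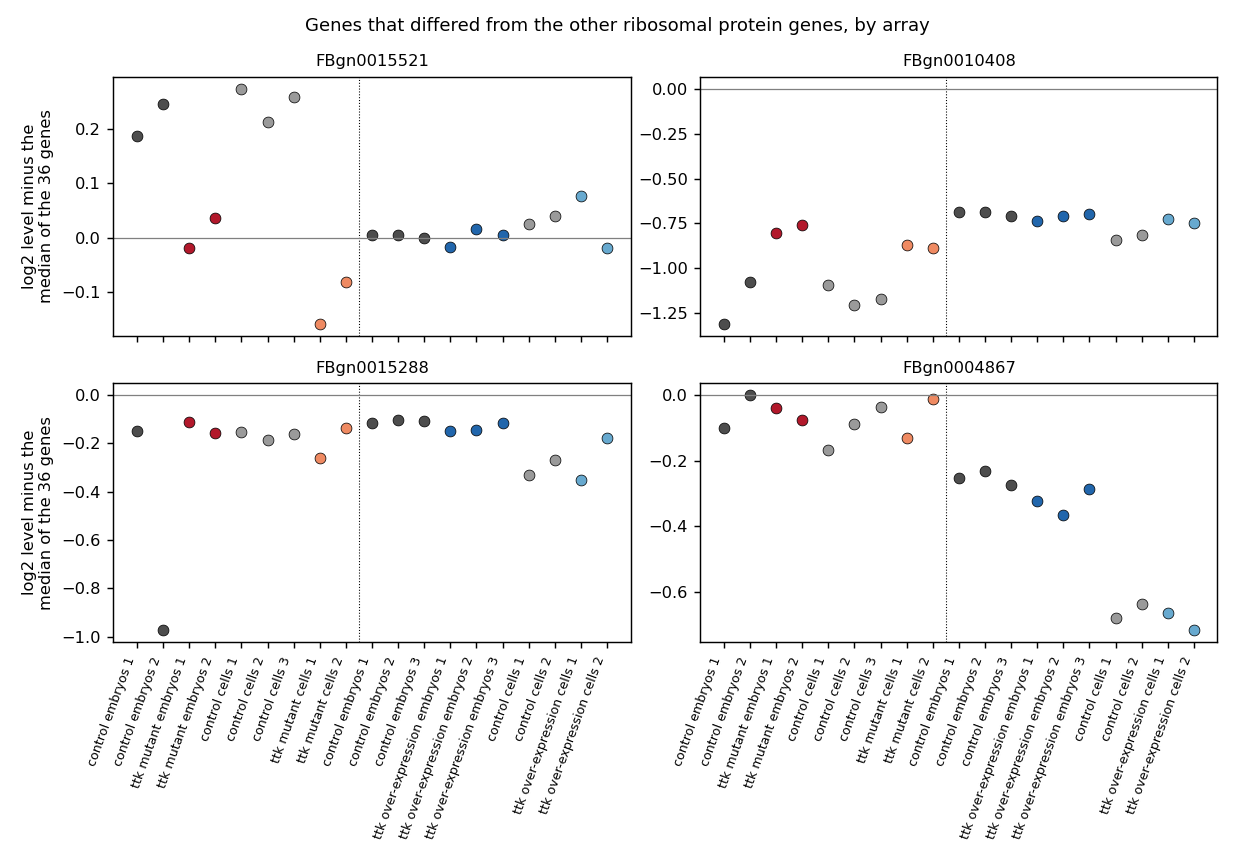
Log2 level minus the median of the 36 ribosomal protein genes on the same array (vertical axes, each with its own range) for 4 genes on the 19 arrays (horizontal axes). FBgn0015521 is lower and FBgn0010408 higher in both materials labelled ttk mutant, FBgn0015288 is low on 1 control embryo array, and FBgn0004867 is low on the 4 cell arrays of the over-expression experiment.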

How the data were processed

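The authors hybridised amplified RNA to Affymetrix Drosophila Genome 2.0 arrays and summarised the probes in R with Bioconductor packages and a Brainarray chip definition for ENSEMBL genes. The submitters' processing notes name RMA, and 2 embryo and 1 cell array of the mutant experiment were removed by the authors' quality control. The deposited values are log2 expression, 1 per FlyBase gene and array, a unit inferred from their range. Array medians of the deposited values differ between groups. For the mutant experiment, the study's quality control text says that early normalization between groups was avoided. Whether arrays were normalized between groups at a later step, or in the over-expression experiment, is not given in the sources used here. In the mutant experiment the phage cre 3′ feature was 14.5896 on all 3 control cell arrays. It was 14.6871 on both cell arrays labelled mutant. Whether each group of cells was normalized by itself was not tested. All 19 columns were used, and 182 control features were left out of the tests.

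Each array was centred on its median over all genes. limma 3.58.1 in R 4.3.3 was fitted with lmFit and eBayes to the 2 groups of each comparison, two-sided, over 12679 genes with Benjamini-Hochberg adjustment and a threshold of 0.05, and to all 4 groups of an experiment for the difference between cells and embryos. The self-test used simulated data. Alternatives were the deposited values, quantile normalization, an intensity trend, all 4 groups in one fit, leaving out genes below the median signal, the study's rule of a log2 change of 1 with an unadjusted p of 0.05, a replicate block, and leaving out each array. The 9 hybridisation controls as a scale were added after seeing the data, as was leaving out FBgn0020910. The 2 genes with the highest and the 2 with the lowest centred difference in each comparison are named, with the highest and lowest by level. Where groups hold 2 or 3 arrays, the p-values measure the spread between those arrays, and the number of arrays limits the precision. The paper describes them as biological replicates. The genes and lists were chosen with earlier results of these data known. Symbols of 6 further lists (other ribosomal proteins, mitochondrial ribosomal proteins, translation factors, ribosome production, blood cells, nervous system) paired with 0 rows each, so they were not tested. Sequences were not used here.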

Additional observations from a re-analysis of the deposited data

Results flagged for a closer look

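The arrays carry control features named for fly transcripts, which the comparisons above do not use, each summarised here as the mean of its 5′, middle and 3′ features. In embryos labelled ttk2D50 the mean of the 18S rRNA features lay above every control array, at 4.06 and 4.16 against 3.66 and 3.96 above the array median. The difference was 0.31 (0.51 as deposited), and 0.16 without the second control array. The 3′ feature alone overlapped the controls, at 4.25 and 4.28 against 4.44 and 3.70. In the over-expression experiment the mean of the 18S rRNA features lay below every control array. The differences were −0.36 in embryos (−0.34 as deposited) and −0.70 in cells (−0.61 as deposited). These were −0.23 without the first embryo array labelled over-expression and −0.31 without the second control cell array. In cells the 5′ feature alone overlapped, at 10.48 and 11.24 as deposited against 10.94 and 11.88 in controls. The GAPDH features lay above every control array in embryos labelled over-expression, by 0.62 (0.64 as deposited, 3 arrays against 3), of which 0.24 remained without the second array labelled over-expression, at 2.41. They did so in cells labelled over-expression as well, by 0.56 (0.66 as deposited, 2 arrays against 2). These features were not tested. Groups apart in the same directions were common among all genes on centred arrays. In mutant embryos 26.8% of all genes lay above every control array. In over-expression embryos and cells 23.6% and 33.7% of all genes lay below every control array, and 14.1% and 15.6% above.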

How the results depend on the processing

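Array scaling decided the sign of most median differences of the ribosomal protein genes, by its own construction as a shift of arrays. As deposited the medians were 0.089 in mutant embryos, −0.30 in mutant cells, −0.041 in over-expression cells, −0.26 for control cells against embryos in the mutant experiment and −0.11 in the over-expression experiment. Quantile normalization gave −0.0057, 0.045, −0.0013, −0.070 and −0.095 in the same order, and 0.0015 in over-expression embryos. With the hybridisation controls as scale, chosen after seeing the data, they were −0.35 in mutant cells, 0.055 and −0.048 in over-expression embryos and cells, and −0.30 and −0.12 for the control comparisons. Genes called in mutant cells numbered 0 on centred arrays (5.45% of all genes were called). As deposited 16 were called, all lower (44.4% of all genes). With an intensity trend 25 were called, all higher (5.31% of all genes). The trend gave 3 for the controls of the mutant experiment, all higher (5.06% of all genes). In the over-expression controls 36 were called on centred arrays, all higher (55.6% of all genes). On the deposited values 9 were called there, all lower (66.2% of all genes). Quantile normalization gave 7, of which 1 was higher and 6 lower (34.3% and 35% of all genes). The hybridisation controls gave 4, all lower (64.9% of all genes). The study's rule also gave 4, all higher (22.3% of all genes). Leaving out FBgn0020910, genes below the median signal, or fitting all 4 groups together kept every count within 1.5 times. Deviations of same-numbered arrays correlated from −0.32 to 0.46. With 2 or 3 shared numbers in a comparison, this cannot settle whether the replicate numbers pair the arrays. A replicate block called 0, 0, 0, 0, 0 and 36 genes with medians of −0.11, 0.39, −0.038, −0.13, 0.27 and 0.94, so it changed no count of calls. Leaving out each array gave medians of −0.16 to −0.065 in mutant embryos, 0.34 to 0.41 in mutant cells, −0.065 to −0.013 and −0.19 to −0.065 in over-expression embryos and cells, and 0.24 to 0.32 and 0.91 to 0.97 for the controls, and the counts of calls stayed at 0 and 36.

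Single genes also turned with the scale. As deposited, FBgn0010408 and FBgn0002622 were at −0.063 and −0.13 in mutant cells, FBgn0003941 at 0.019 in over-expression embryos and FBgn0003279 at 0.075 in over-expression cells. In the controls of the mutant experiment FBgn0020910 and FBgn0003274 were at −0.52 and −0.46, and in those of the over-expression experiment FBgn0020910, FBgn0005533, FBgn0004867 and FBgn0003279 at −0.0083, −0.024, −0.51 and −0.30. Quantile normalization turned FBgn0003941 to 0.039, FBgn0003279 to 0.15, FBgn0020910 and FBgn0003274 in the mutant controls to −0.18 and −0.25, and FBgn0004867 and FBgn0003279 in the over-expression controls to −0.49 and −0.30. The hybridisation controls turned FBgn0010408 and FBgn0002622 to −0.10 and −0.17, FBgn0003941 to 0.087, FBgn0003279 to 0.068, FBgn0000100, FBgn0020910 and FBgn0003274 in the mutant controls to −0.030, −0.55 and −0.50, and FBgn0020910, FBgn0005533, FBgn0004867 and FBgn0003279 in the over-expression controls to −0.027, −0.042, −0.53 and −0.32. The replicate block turned FBgn0015521 in mutant cells to 0.00010 and FBgn0020910 in the mutant controls to −0.037. Leaving out an array turned FBgn0015288 in mutant embryos (range −0.11 to 0.61), FBgn0015521 (−0.094 to 0.045) and FBgn0020910 (−0.23 to 0.019) in mutant cells, FBgn0003941 (−0.028 to 0.021) and FBgn0003274 (−0.024 to 0.018) in over-expression embryos, FBgn0003279 (−0.055 to 0.023) and FBgn0020910 (−0.12 to 0.51) in over-expression cells, and FBgn0003274 (−0.024 to 0.19) and FBgn0020910 (−0.33 to 0.40) in the mutant controls.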

Other observations

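The array's control features cover 4 further fly transcripts, among them eIF-4a, an RNA helicase of translation initiation. Relative to the array median its features averaged 4.99 in control embryos and 5.30 in control cells of the mutant experiment, and 3.75 and 4.48 in those of the over-expression experiment, differences of 0.31 and 0.73. As deposited they were −0.24 and −0.32. The ribosomal protein genes had median differences of 0.29 and 0.94 on centred arrays and −0.26 and −0.11 as deposited. In ttk2D50 the eIF-4a features differed from controls by 0.0013 in embryos and 0.33 in cells on centred arrays, where the ribosomal protein genes had medians of −0.11 and 0.38. The features of Act5C, a cytoplasmic actin and no gene of translation, differed by 0.72 and 0.66 between control cells and embryos of the 2 experiments, and by −0.053 and 0.59 in embryos and cells labelled ttk2D50. Those of 18S rRNA had 0.63, 0.20, 0.31 and 0.17 in the same order, and those of GAPDH −0.72, −0.60, −1.25 and −0.79.

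The 3′ minus 5′ difference of such features is a sign of how complete the amplified RNA was, and it had no common direction. Between control cells and control embryos it differed by 0.46 in the mutant and 0.25 in the over-expression experiment for eIF-4a and by 0.64 and 0.39 for GAPDH, but by −0.37 and −0.63 for 18S rRNA and by −0.42 and 0.14 for Act5C. Its part in the differences between cells and embryos was not tested.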
